A study of Mus musculus with 13 samples.

Results

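Described here are 10 nuclear genes: Tfam, Tfb1m, Tfb2m, Polrmt, Lrpprc, Slirp, Pnpt1, Polg, Twnk and Ppargc1a. They bear on the RNA or the copying of the mitochondrial genome, or on mitochondrial content. They were chosen by symbol, and 10 of 10 were found among the 55357 genes of the counts table. The tissue was the lymphedematous tail of mice aged 12 weeks, swollen because lymph drained poorly, and it was taken on day 28 following TNT. TNT is read here as tissue nanotransfection, the delivery of nucleic acids into skin by short electric pulses. The study had 7 TNTSham samples as controls and 6 TNTProx1 samples, named for the transcription factor that specifies lymphatic endothelium. Strain, genotype, sex and construct are not in the labels. Nor do they tie samples to animals, and p-values thus reflect the spread among these samples, which may be technical. Replicate numbers name libraries and pair nothing.

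The mitochondrial genome is copied and transcribed by proteins that are encoded in the nucleus. The polymerase Polrmt starts transcription at promoters with the packaging protein Tfam and the melting factor Tfb2m, and the long transcripts are then cut into mRNAs, rRNAs and tRNAs. Lrpprc and Slirp form a complex that stabilises the mRNAs, and Pnpt1, a polynucleotide phosphorylase, takes part in RNA decay and import. Polg and Twnk, a DNA polymerase and a helicase, copy the genome and so maintain the number of templates. Ppargc1a (PGC-1 alpha) is the transcriptional coactivator best known for raising mitochondrial content in muscle and brown fat.

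Libraries held 29.7M to 48.0M counts (M, mega). The mean of Prox1 itself was 28.1 ± 2.95 CPM (SD, n = 7) in the sham group and 37.5 ± 19.0 CPM (SD, n = 6) in TNTProx1, a log2 fold change of 0.41 with an edgeR adjusted p of 0.506, and TNTProx1 4 to 6, at 18.7 to 32.6 CPM, overlapped the sham range of 23.4 to 33.1. TNTProx1 1 to 3 held 29.6 to 72.9 CPM of Prox1, and without TNTProx1 4 to 6 its log2 fold change was 0.78, at an unadjusted p of 0.00221. Libraries TNTProx1 4 to 6 stood apart from the other 10: genes of the annotation class TEC (models to be experimentally tested) held 0.136 to 0.193% of their counts against 0.378 to 0.745%, and the nuclear RNA Malat1 was at 3410 to 3539 CPM against 8979 to 16814. CPM is a count per M counts of its library, scaled with the TMM factors of edgeR. Comparisons between the groups are therefore also given without these 3 libraries, since no TNTSham library shares what sets them apart and it cannot be told apart from TNTProx1. Keratin and muscle markers were both present: the 5 keratinocyte markers summed to 24221 to 38371 CPM in TNTSham, and the 13 skeletal muscle markers to 9778 to 17535 CPM. The muscle sum was 5246 to 12327 CPM in TNTProx1, and 12 of these 13 markers were lower, 6 of them at an unadjusted p under 0.05, where 12.2% of all genes were. In the 10 libraries that remain without TNTProx1 4 to 6, 10 of the 13 were lower at that threshold, where 21.4% of all genes were. Of 5 brown fat markers, Ucp1 was near 0, with 35 counts over all 13 libraries. Others were present: Cidea was at 15.7 ± 4.35 CPM, Dio2 at 11.5 ± 4.99 CPM and Cox7a1 at 1.71 ± 1.04 CPM (SD, n = 7) in TNTSham. The 5 summed to 65.7 to 127 CPM there.

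RNA of the mitochondrial genome held a lower share of counts in TNTProx1. The 37 mitochondrially encoded genes (13 mRNAs, 2 rRNAs and 22 tRNAs) held 1.78% ± 0.258 (SD, n = 7) of all counts in TNTSham, from 1.29 to 2.11%. They held 0.963% ± 0.239 (SD, n = 6) in TNTProx1, from 0.652 to 1.27%, so that the groups did not overlap. The mean log2 share differed by -0.91, with an exact two-sided permutation p of 0.00117 over all assignments of the 13 samples. TNTProx1 4 to 6, at 0.804 to 1.04%, were within the range of TNTProx1 1 to 3, and without them the difference was -0.83 with an exact permutation p of 0.00833, the smallest that 120 assignments can give. In bulk tissue, fewer cells rich in mitochondria and less mitochondrial RNA per cell cannot be told apart. Markers of several cell types moved with this difference, and their part was not tested. Beside the lower skeletal muscle markers, 6 of 6 osteoclast markers were higher, 5 of them at an unadjusted p under 0.05, where 12.2% of all genes were. They summed to 382 to 764 CPM in TNTSham and 797 to 1445 CPM in TNTProx1. Fibroblast markers were higher in 5 of 5, 2 of them at that threshold, with sums of 25562 to 49114 and 34610 to 102918 CPM. Without TNTProx1 4 to 6, 4 osteoclast and 3 fibroblast markers were higher at the threshold, where 21.4% of all genes were. Keratinocyte markers were lower in 4 of 5 over the 13 libraries, with 0 at the threshold and a sum of 5158 to 52949 CPM in TNTProx1. Their median log2 fold change was -0.18, or -0.79 without TNTProx1 4 to 6, where 2 were lower at the threshold. The share differed in all 3 RNA classes, by -0.90 on the log2 scale for mRNAs, -1.26 for the rRNAs, which the ribosomal depletion also targets, and -0.77 for tRNAs. The exact permutation p was 0.00641 for the rRNAs and 0.0105 for the tRNAs, or 0.0667 and 0.108 without TNTProx1 4 to 6. By gene, mt-Co1, a heavy strand cytochrome oxidase mRNA, differed by -0.78 and mt-Cytb, another heavy strand mRNA, by -0.99. Without TNTProx1 4 to 6 these were -0.80 and -0.73. Over the 13 libraries mt-Nd6, the only mRNA of the light strand, differed by -0.90. For mt-Nd6 the exact permutation p was 0.0723 and the difference shrank to -0.22 without TNTProx1 4 to 6, so a change of the light strand mRNA was not shown. The strand setting of the counting is not given, so reads of the heavy and light strands may not have been told apart at mt-Nd6.

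None of the 10 regulators passed the test between the groups. By edgeR's quasi-likelihood test, 0 of 10 passed an adjusted p of 0.05 and so did 0% of the 22876 genes tested. At an unadjusted p under 0.05 the count was again 0 of 10, while 12.2% of all genes reached it. After adjustment the Wald test of DESeq2 called 0 members and 2.85% of all genes, and limma voom with quality weights 0 members and 2.5%. In no member did the 2 groups occupy separate ranges of CPM, while 0.612% of all genes did so. Of the 10, 4 were higher and 6 lower in TNTProx1, where 47.7% of all genes were higher. Their median log2 fold change was -0.05 against -0.02 over all genes. The median size of change, sign ignored, was 0.08 on the log2 scale against 0.21 over all genes, and the median standard error was 0.13 against 0.22. Over the 13 libraries the 95% interval of each member excluded -0.91, the log2 difference of the mitochondrial share. The lowest bound was -0.77 for Ppargc1a. Here -0.91 is used as a fixed value, without its own error. Without TNTProx1 4 to 6 the share differed by -0.83, Slirp by -0.50 and Ppargc1a by -0.34, and no intervals are given there.

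**Figure D1:**
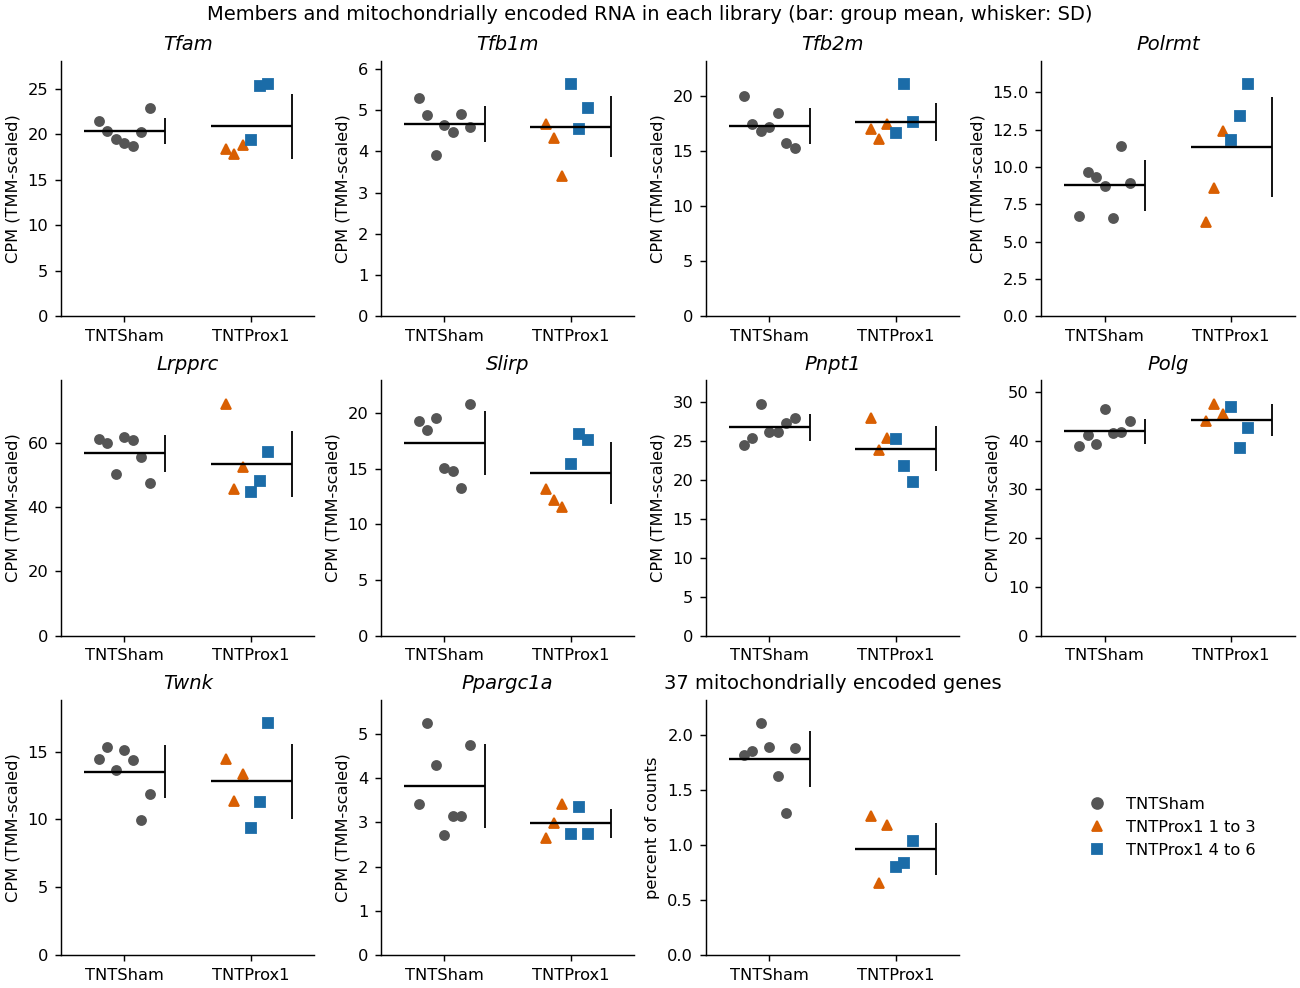
Level of each regulator in the 13 libraries (vertical axes, CPM after TMM scaling) and the percent of counts on the 37 mitochondrially encoded genes (last panel), with the group mean (bar) and SD (whisker). The groups overlap in all 10 regulators, and also in all but 0.612% of the 22876 genes tested. The mitochondrial share lies between 0.652 and 1.27% in TNTProx1 and between 1.29 and 2.11% in TNTSham.

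**Figure D2:**
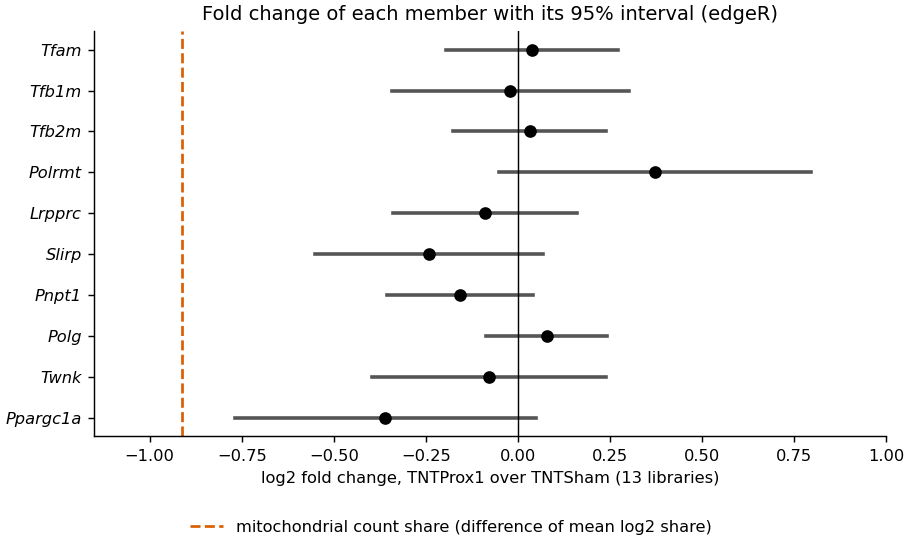
Log2 fold change of each regulator, TNTProx1 over TNTSham (points), with its 95% interval from edgeR (bars), 13 libraries. The dashed line marks -0.91, the difference of the mean log2 mitochondrial share, which lies outside all 10 intervals. It is drawn without its own error.

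Levels per length differed widely among the regulators in TNTSham. Per kilobase of principal transcript, Lrpprc was highest with 12.95 ± 1.32 CPM (SD, n = 7), followed by Pnpt1 with 9.88 ± 0.651. Tfb2m (7.06), Slirp (6.42), Polg (5.35) and Tfam (4.88) followed in that order, and neighbours among these 4 did not differ by more than the sum of their SDs. Twnk (3.88) and Tfb1m (3.33) formed a further pair not separated by their spread. Polrmt was at 2.33 ± 0.448, and Ppargc1a was lowest with 0.591 ± 0.147. Each length was that of the longest transcript annotated as principal, such as 2701 bases for Slirp and 7837 for Polg. Which transcripts carried the reads was not measured, and the annotation is older than the one behind the counts. Ranks could change with either, and not only between neighbours.

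Polrmt, the RNA polymerase, was higher in most TNTProx1 libraries, among them the 3 that stood apart. Its CPM in TNTSham ran from 6.60 through a median of 8.91 to 11.4, with a mean of 8.76 ± 1.68 (SD, n = 7). In TNTProx1 it ran from 6.29 through 12.1 to 15.5, with a mean of 11.3 ± 3.36 (SD, n = 6). Of the 6 TNTProx1 libraries, 4 exceeded every TNTSham library and 1 was under the lowest, and the 3 libraries that stood apart held 11.8 to 15.5 CPM. The log2 fold change was 0.37 ± 0.20 (SE) with a 95% interval from -0.05 to 0.80 and an edgeR adjusted p of 0.476. Without TNTProx1 4 to 6 it was 0.05. With a muscle score in the model (the mean scaled log2 CPM of the 13 skeletal muscle markers), Polrmt was at 0.59, with an edgeR adjusted p of 0.218 and an unadjusted p of 0.0205, where 18.9% of all genes were under 0.05.

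Tfam, which coats and bends mitochondrial DNA, had nearly the same mean in both groups. TNTSham libraries ran from 18.8 through 20.3 to 22.9 CPM, and TNTProx1 libraries from 17.8 through 19.1 to 25.5. The TNTProx1 libraries split: 1 to 3 were at 17.8 to 18.9 CPM, and 2 of TNTProx1 4 to 6 lay above the TNTSham range. The means were 20.3 ± 1.45 (SD, n = 7) and 20.9 ± 3.55 (SD, n = 6), and the log2 fold change was 0.04 ± 0.11 (SE), with an edgeR adjusted p of 0.909. Leaving out TNTProx1 4 to 6 turned its sign, to -0.15.

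Tfb2m, the initiation factor, ran from 15.3 through 17.2 to 20.1 CPM in TNTSham and from 16.1 through 17.3 to 21.1 CPM in TNTProx1. Only TNTProx1 5 lay outside the TNTSham range. Tfb2m had a log2 fold change of 0.03 ± 0.10 (SE), or -0.04 without TNTProx1 4 to 6. Tfb1m, its relative, which methylates the small mitochondrial rRNA, was at 4.67 ± 0.432 CPM (SD, n = 7) and 4.60 ± 0.749 CPM (SD, n = 6), from 3.91 through 4.64 to 5.30 and from 3.40 through 4.61 to 5.63. Its log2 fold change was -0.02 ± 0.15 (SE), but -0.18 without TNTProx1 4 to 6 and -0.21 with limma voom. With 116 to 250 counts in a library, Tfb1m was among the less precisely measured members, and its interval ran from -0.34 to 0.30.

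The pair of partners that protect mitochondrial mRNAs gave different patterns across libraries. Lrpprc, the larger partner, ran from 47.6 through 60.2 to 62.0 CPM in TNTSham and from 44.8 through 50.4 to 72.3 CPM in TNTProx1. The highest of all 13 was TNTProx1 1, and 2 TNTProx1 libraries lay below the TNTSham range. The Lrpprc log2 fold change was -0.09 ± 0.12 (SE), with an edgeR adjusted p of 0.787, and it was -0.0012 without TNTProx1 4 to 6.

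Slirp, the small RNA-binding partner, divided TNTProx1 by library. Its CPM ran from 13.3 through 18.5 to 20.9 in TNTSham, with a mean of 17.3 ± 2.90 (SD, n = 7), and from 11.5 through 14.3 to 18.1 in TNTProx1, with a mean of 14.7 ± 2.79 (SD, n = 6). TNTProx1 1 to 3 held 11.5 to 13.2 CPM, all narrowly or further under the lowest TNTSham library at 13.3. TNTProx1 4 to 6 held 15.4 to 18.1, all inside the TNTSham range. How many of all genes separate TNTProx1 1 to 3 from TNTSham in this way was not counted. Over all 13 libraries the log2 fold change was -0.24 ± 0.15 (SE), with a 95% interval from -0.55 to 0.07 and an edgeR adjusted p of 0.537. Without TNTProx1 4 to 6 it was -0.50 with an adjusted p of 0.0957, and Slirp was the 1 member of 10 at an unadjusted p under 0.05, where 21.4% of all genes were. A model with the muscle score gave -0.04 over the 13 libraries.

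Slirp counts carry a further limit. In GENCODE M21 93.9% of its exon bases lie under Snw1, a splicing factor gene on the opposite strand, and Alkbh1 also overlaps it. Libraries were stranded, but no source used here gives the strand setting of the counting, so reads of Slirp and Snw1 may not have been told apart. Snw1 averaged 59.4 ± 3.61 CPM (SD, n = 7) in the sham group against 57.1 ± 9.32 CPM (SD, n = 6) in TNTProx1, a log2 fold change of -0.06, or -0.23 without TNTProx1 4 to 6. Twnk (12.6% of exon bases, with Mrpl43), Polg (8.6%, with Fanci) and Tfb1m (3.9%, with Tiam2) overlap less, and the other 6 members not at all.

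Pnpt1 was lower in 3 TNTProx1 libraries than in any TNTSham library. It ran from 24.5 through 26.2 to 29.8 CPM in TNTSham and from 19.7 through 24.5 to 27.9 CPM in TNTProx1. The log2 fold change was -0.16 ± 0.09 (SE), with a 95% interval from -0.36 to 0.04 and an edgeR adjusted p of 0.526. Without TNTProx1 4 to 6 it was -0.06.

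The genes that copy the mitochondrial genome had small differences with overlapping ranges. Polg, the most evenly expressed of the 10 in TNTSham with a coefficient of variation of 6.29%, ran from 38.9 through 41.6 to 46.5 CPM there and from 38.6 through 44.8 to 47.6 CPM in TNTProx1. Polg differed by 0.08 ± 0.08 (SE) on the log2 scale, and its 95% interval from -0.09 to 0.24 was the narrowest of the 10. Leaving out TNTProx1 4 to 6 gave 0.12. Twnk ran from 9.95 through 14.4 to 15.4 CPM and from 9.37 through 12.3 to 17.1 CPM. Both its lowest and its highest library were in TNTProx1 4 to 6, and its log2 fold change was -0.08 ± 0.15 (SE), or -0.06 without these 3.

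Ppargc1a had the most variable level in TNTSham, with a coefficient of variation of 24.9%, and rested on 93 to 209 counts in a library. It ran from 2.72 through 3.42 to 5.25 CPM in TNTSham and from 2.64 through 2.87 to 3.43 CPM in TNTProx1. The 3 highest libraries were TNTSham 2, 3 and 7, and the TNTProx1 libraries sat at the lower end of the TNTSham range with 1 below it. The means were 3.82 ± 0.950 (SD, n = 7) and 2.98 ± 0.335 (SD, n = 6). The log2 fold change was -0.36 ± 0.19 (SE), with a 95% interval from -0.77 to 0.05 and an edgeR adjusted p of 0.473. It was -0.34 without TNTProx1 4 to 6.

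Within TNTSham, Ppargc1a followed skeletal muscle. Its log2 CPM correlated with the muscle score over the 7 libraries with Pearson's r of 0.95 (exact permutation p = 0.00298, 0.0327 adjusted over 11 relations) and Spearman's rho of 0.86 (exact permutation p = 0.0238). Without the 2 libraries farthest from the median score r was 0.85. None of the other 9 regulators nor the mitochondrial share (r = 0.26) passed in that family. The 5 genes most like Ppargc1a across the 7 libraries, of 18126 compared, were Aldh6a1 (r = 0.99), an enzyme of valine breakdown, Casq1 (0.99), the calcium store protein of fast muscle, Cap2 (0.99), an actin regulator, Lysmd1 (0.98) and 1110002E22Rik (0.98). Values this high among so many genes are a result of picking the top 5, and no test was made. Ppargc1a had a log2 fold change of -0.13 once the muscle score entered the model. In TNTProx1 the level did not climb with the score. TNTProx1 1, 2 and 3 held 2.64, 2.98 and 3.43 CPM at scores of -0.32, -1.93 and -0.69. TNTProx1 4, 5 and 6 held 2.75, 3.34 and 2.73 CPM at -0.12, -0.02 and 0.12. The scores of TNTSham ran from -0.35 to 1.44. The part of muscle in the group difference of Ppargc1a was not tested.

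**Figure D3:**
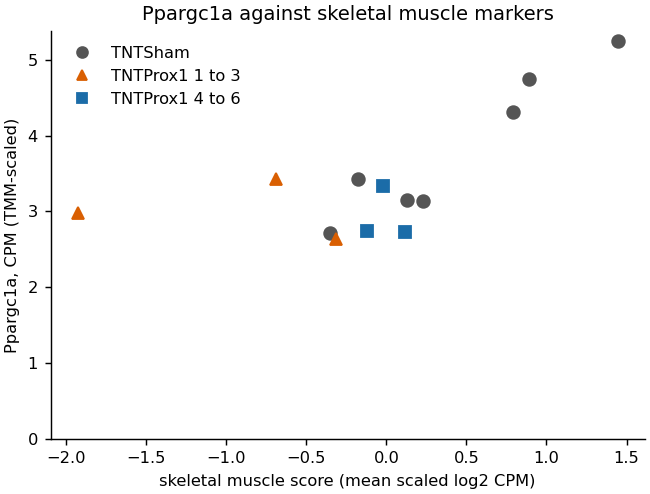
Ppargc1a in CPM (vertical axis) against the skeletal muscle score, the mean scaled log2 CPM of 13 markers (horizontal axis), with 1 point per library. The TNTSham libraries climb from 2.72 CPM at a score of -0.35 to 5.25 CPM at 1.44, and TNTProx1 4 to 6 lie at scores of -0.12 to 0.12.

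TNTProx1 libraries held fewer mitochondrial counts per count of each regulator. The log2 difference of that ratio ran from -0.56 for Ppargc1a to -1.23 for Polrmt, and its exact two-sided permutation p from 0.000583 to 0.0309 without adjustment. The 10 ratios share a numerator and so repeat much of 1 result. The share of that numerator in all counts differed by -0.91, so any gene of steady level would give a lower ratio. These p-values therefore say little about the regulators themselves. How many of all genes give such a ratio, or separate the groups by it, was not counted. For Lrpprc, TNTSham libraries held 226 to 416 mitochondrial counts per Lrpprc count and TNTProx1 libraries 128 to 233. The groups did not overlap in the ratios to Tfb2m, Polg and Twnk. Without TNTProx1 4 to 6 the ratio to Slirp differed by -0.38 (exact permutation p = 0.125), that to Ppargc1a by -0.55 (exact permutation p = 0.108), and the ratio to Tfb1m by -0.67 (exact permutation p = 0.05). For these 3 genes the p was therefore not under 0.05 in the 10 libraries.

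Across the TNTSham libraries alone, no regulator followed the mitochondrial share beyond what 10 correlations allow. Slirp came closest, with r = 0.77 over 7 libraries (exact permutation p = 0.0220, 0.220 adjusted over the 10) and rho = 0.68 (exact permutation p = 0.110). Without the 2 libraries farthest from the median share its r was 0.53, and without TNTSham 6 alone it was 0.57 (exact permutation p = 0.282). Snw1, which overlaps Slirp on the opposite strand, had r = 0.60 with the share (exact permutation p = 0.131). Twnk had r = 0.68 (exact permutation p = 0.111) but rho = 0.25 (exact permutation p = 0.595), and r was -0.22 once TNTSham 6, the lowest in both measures, was left out. For Lrpprc r was -0.20, for Tfam 0.08, for Tfb1m -0.44 and for Ppargc1a 0.43, each with an adjusted p of at least 0.883 by the same exact permutation. The shares of the 2 groups form separate ranges, so no correlation over both is given.

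**Figure D4:**
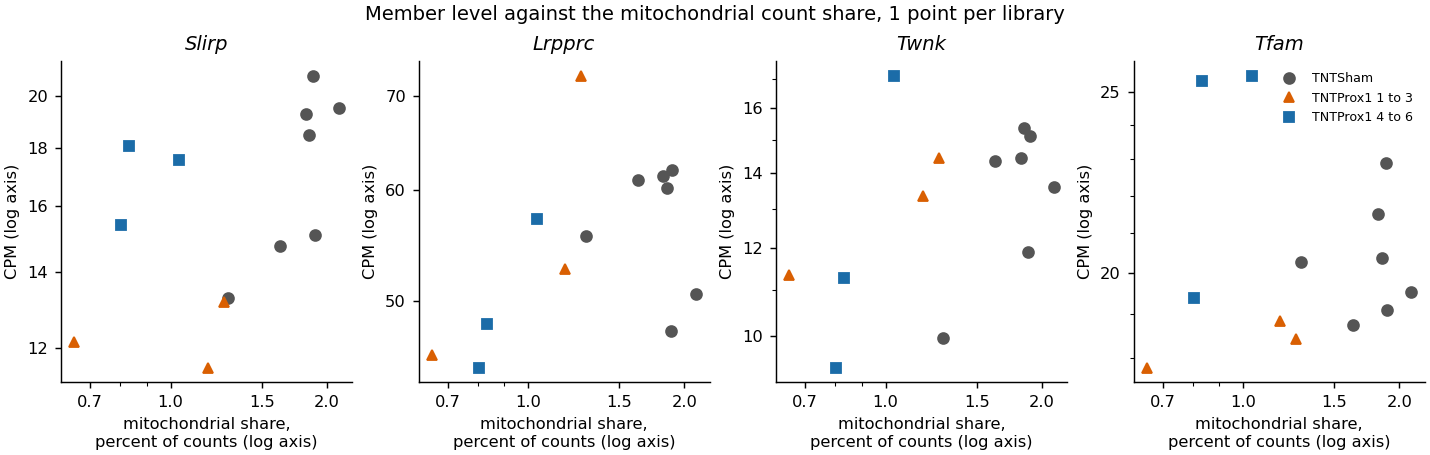
CPM of Slirp, Lrpprc, Twnk and Tfam (vertical, log axes) against the percent of counts on mitochondrially encoded genes (horizontal, log axes), with 1 point per library. Slirp climbs with the share among the TNTSham libraries (r = 0.77), while TNTProx1 4 to 6 lie at 15.4 to 18.1 CPM at shares of 0.804 to 1.04%.

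Single mitochondrial mRNAs gave a similar result. Of 130 correlations between the 10 regulators and the 13 mRNAs within TNTSham, 11 had an exact permutation p under 0.05, and 0 passed adjustment over the 130. Twnk gave 8 of the 11, Slirp 2 and Lrpprc 1. For the 8 of Twnk Pearson's r ran from 0.87 to 0.94, but Spearman's rho from 0.32 to 0.54, with an exact permutation p of at least 0.236. They were not repeated without TNTSham 6, where r of Twnk with the summed share was -0.22. Slirp correlated positively with 13 of 13 mRNAs, from r = 0.19 with mt-Nd4l to 0.88 with mt-Co3, and Tfb1m negatively with 13 of 13. Over all 10 regulators 66 of the 130 were positive, and the 13 mRNAs share libraries, so that their signs are not separate results. Of the 45 pairs of regulators within TNTSham, 3 had an exact permutation p under 0.05 and 0 passed adjustment. All 3 were negative, for Tfb1m with Pnpt1 (r = -0.85), Lrpprc with Pnpt1 (-0.83) and Tfb2m with Polrmt (-0.79). With TNTProx1 1 to 3 added, r was -0.14, 0.05 and -0.49 in the same order, values that also hold the difference between the groups.

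The upstream sequence of these genes was searched for letters of factors linked to mitochondrial biogenesis, on both strands of the 250 bases before each RefSeq start (GRCm38.p6). Windows were found for 10 of 10 genes, with a second one for Twnk. The GABP core CCGGAAG lay before Tfam, Polrmt, Polg, Twnk and Slirp, 5 of 10 genes, against 6.91% of 32851 promoters. It occurred 3 times before Slirp, at 146, 48 and 11 bases, in a window that lies wholly in exons of Alkbh1. In GENCODE M21, 236 of the 250 bases lay in exons of Tfam itself for Tfam, and 204 in exons of Polg and Gm10616 for Polg. The 2 Twnk windows had 250 and 135 bases in exons of Mrpl43, and the core was in the latter. Most of these windows are thus not purely sequence upstream of transcripts. The cAMP response half-site TGACG lay before Ppargc1a, Polg, Slirp, Tfb1m and Lrpprc, against 17.77% of promoters. The estrogen-related receptor core AAGGTCA lay before Twnk (4.08% of promoters) and the YY1 core AAGATGG before Slirp (4.49%). The NRF1 letters GCGCANGCG were in none of the 10 (5.16%), which says only that these letters were not in this window. No factor's binding was measured, and a match describes letters only. No 2 matches overlapped.

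The windows of Polrmt, Lrpprc and Ppargc1a are shown because their windows lie almost wholly outside annotated exons and these genes stand for the polymerase, RNA stability and coactivator roles. All 3 are from the minus strand, 5′ to 3′, and matches are in capitals: GABP at 43 bases for Polrmt (chr10:79746582-79746831), the half-site at 204 bases for Lrpprc (chr17:84790787-84791036) and at 49 bases for Ppargc1a (chr5:51567726-51567975).
Polrmt: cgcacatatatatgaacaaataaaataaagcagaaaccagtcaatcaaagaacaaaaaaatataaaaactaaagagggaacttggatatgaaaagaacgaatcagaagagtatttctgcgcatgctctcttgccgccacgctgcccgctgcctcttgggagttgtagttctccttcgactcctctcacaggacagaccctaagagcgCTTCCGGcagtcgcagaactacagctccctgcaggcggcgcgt
Lrpprc: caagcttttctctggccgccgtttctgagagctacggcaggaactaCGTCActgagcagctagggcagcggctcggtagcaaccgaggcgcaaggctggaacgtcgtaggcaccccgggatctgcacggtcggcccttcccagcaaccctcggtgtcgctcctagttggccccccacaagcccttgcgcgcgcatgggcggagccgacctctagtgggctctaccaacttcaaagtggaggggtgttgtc
Ppargc1a: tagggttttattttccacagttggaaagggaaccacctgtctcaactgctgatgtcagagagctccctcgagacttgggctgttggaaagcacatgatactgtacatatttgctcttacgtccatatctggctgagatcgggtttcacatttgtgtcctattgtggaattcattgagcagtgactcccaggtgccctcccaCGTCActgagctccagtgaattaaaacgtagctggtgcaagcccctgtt
The GC content was 46.8% for Polrmt, 63.6% for Lrpprc and 48.0% for Ppargc1a. In GENCODE M21 none of the Polrmt window lies in an exon, and 3 bases of the Lrpprc window and 1 of the Ppargc1a window do.

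In the wider pathways few single genes differed, in counts to be read against the 12.2% of all genes at an unadjusted p under 0.05. Counts of higher genes are to be read against the 47.7% of all genes tested that were higher. None of the genes in the 7 lists passed adjustment, and neither did any of the 22876 genes tested (0%). Of 11 mitochondrial transcription factors, 4 were higher and 7 lower, with a median log2 fold change of -0.11, and 1 reached the unadjusted threshold. That was Mterf3, a repressor of mitochondrial transcription, at -0.24, or -0.04 without TNTProx1 4 to 6. Mterf2 was at -0.28, and Mrpl12, a ribosomal protein placed in this list, at 0.30, and without TNTProx1 4 to 6 they were at -0.11 and -0.41. Of 35 RNA processing and decay genes, 17 were higher and 18 lower, with a median of -0.00 and 0 at the threshold. Beside Slirp and Pnpt1, the genes of smallest p were the nuclease Endog (0.62) and the oligoribonuclease Rexo2 (0.24), which were at 0.03 and -0.15 without TNTProx1 4 to 6. Of 23 genes of mitochondrial DNA replication, 6 were higher and 17 lower, with a median of -0.06 and 0 at the threshold. Beside Polg these were the exonuclease Mgme1 (0.24), the single-strand binding protein Ssbp1 (-0.33) and the nuclease Dna2 (-0.26). In the 10 libraries left without TNTProx1 4 to 6, Mgme1 was at -0.08, Ssbp1 at 0.05 and Dna2 at -0.0071.

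Upstream of these, 20 of 24 genes of the PGC-1 axis were lower and 4 higher over the 13 libraries, where 47.7% of all genes were higher. Their median was -0.11 against -0.02 over all genes. Without TNTProx1 4 to 6 it was -0.03 against -0.0012, so the lean to lower values shrank there. Prkaa2 (-0.45) and Prkab2 (-0.24), subunits of the AMP-activated kinase that are common in muscle, were lower at an unadjusted p under 0.05, and were at -0.73 and -0.21 without TNTProx1 4 to 6. The nuclear receptor Ppard (0.29) was higher at that threshold, with 0.00 without TNTProx1 4 to 6, and the other kinase subunit Prkaa1 was at 0.08. The 12 skeletal muscle markers that were lower moved with the kinase subunits, and their part was not tested.

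Lists of proteins that work downstream, in translation and import, included 2 lists whose median changed sign without TNTProx1 4 to 6, the ribosomal proteins and the protein content list. Of 78 mitochondrial ribosomal protein genes, 52 were higher and 26 lower, with a median of 0.08, and 5 were higher at an unadjusted p under 0.05. Without TNTProx1 4 to 6 the median was -0.19, with 17 lower and 0 higher at that threshold, where 21.4% of all genes were. Their summed level was 994 to 1179 CPM in TNTSham, 948 to 964 CPM in TNTProx1 1 to 3 and 1337 to 1391 CPM in TNTProx1 4 to 6. Mrpl17 (0.43) and Mrps11 (0.55) were the genes of smallest p that were higher, and Mrps35 (-0.20) and Mrps25 (-0.26) those that were lower. In the 10 libraries Mrpl17 was at -0.03, Mrps11 at 0.0027, Mrps35 at -0.15 and Mrps25 at 0.08. Of 25 genes of mitochondrial protein content, 17 were higher, with a median of 0.09, and without TNTProx1 4 to 6 the median was -0.15 with 10 lower at the threshold. Its named genes were the import pore Tomm40 (0.40), the channel Vdac3 (0.21) and the proteases Clpx (-0.13) and Lonp1 (-0.12). Tomm40 was at -0.13 in the 10 libraries, Vdac3 at -0.01, Clpx at -0.25 and Lonp1 at -0.13. The 17 mitochondrial aminoacyl-tRNA synthetases had a median of 0.05 with and without TNTProx1 4 to 6, with 9 higher and 8 lower over the 13 libraries. Mars2, for methionine, reached an unadjusted p under 0.05 at -0.46, or -0.20 without TNTProx1 4 to 6, and Sars2 (0.40), Vars2 (0.26) and Rars2 (-0.20) did not. Those 3 genes in the 10 libraries were at 0.14, 0.08 and -0.24.

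**Figure D5:**
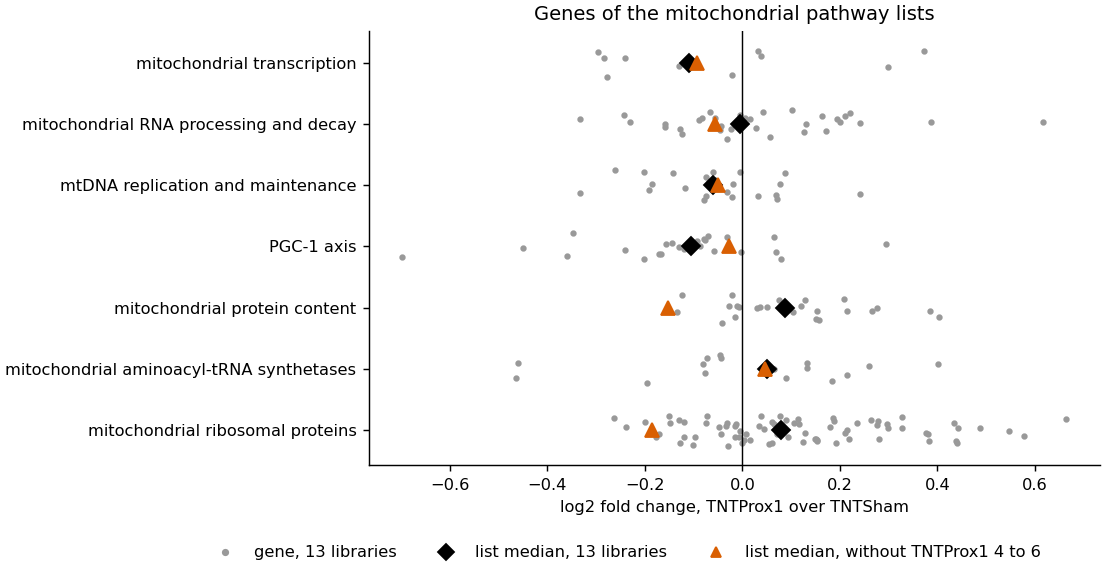
Log2 fold change, TNTProx1 over TNTSham, of each gene in the 7 mitochondrial lists (grey points, 13 libraries), with the list median over 13 libraries (black diamonds) and without TNTProx1 4 to 6 (orange triangles). The medians of ribosomal proteins (0.08 and -0.19) and of protein content (0.09 and -0.15) lie on opposite sides of 0.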

How the data were processed

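RNA of 13 mouse tail samples was measured by stranded, ribosome-depleted total RNA sequencing, per the labels' protocols. The authors deposited raw counts per gene. Per the submitters' processing notes, reads passed through fastp 0.20.1, HISAT2 2.2.1 on GRCm39 and featureCounts of Subread 2.0.2; the notes also name DESeq2 1.34.0 and R 4.1.2. No source used here gives the strand setting, the annotation release or the handling of multi-mapping reads. The last bears on mitochondrially encoded genes, which have nuclear copies.

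GENCODE M21, of an older build, supplied symbols (52081 of 55357 genes matched), classes, lengths and overlaps. Counts were TMM-scaled, filtered by filterByExpr (22876 genes) and tested for group with the quasi-likelihood F test of edgeR 4.0.16 (R 4.3.3), checked on simulated data, with Benjamini-Hochberg adjustment over all genes tested and a threshold of 0.05. The mitochondrial share and its correlations were tested by exact permutation over samples. Totals of 29.7M to 48.0M counts gave each member 93 to 2794 counts in a library.

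Named were all 10 members, from each of 7 pathway lists the 2 higher and 2 lower genes with the smallest p, 3 mitochondrial mRNAs and the 5 genes most like Ppargc1a. Members and lists were chosen with earlier results of these data known. The ratios, pair correlations, single-mRNA correlations and correlations with muscle were chosen after values were seen, as were mt-Nd4l, mt-Co3 and Snw1. Alternatives were DESeq2 1.42.0, its size factors in edgeR, voom with quality weights in limma 3.58.1, no low-count filter, mitochondrial genes left out, a muscle score covariate and each library left out, and, added after seeing the data, a TEC share covariate and a fit without TNTProx1 4 to 6. Results of the 7 marker lists beside those in the text were, as median log2 fold changes, -0.74 for slow muscle, -0.24 for brown adipocytes, -0.19 for white adipocytes, -0.18 for keratinocytes, 0.36 for fibroblasts and 1.06 for osteoclasts.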

Additional observations from a re-analysis of the deposited data

Results flagged for a closer look

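Tfb2m in TNTProx1 held 1 library far from the others. TNTProx1 5 was at 21.1 CPM, and its gap to the next library was large for the range of the group. This was 1 of 22 groups examined (10 regulators and the mitochondrial share in 2 groups), and chance gives about 1 in 20. Without TNTProx1 5 the log2 fold change of Tfb2m was -0.03.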

How the results depend on the processing

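No member passed an adjusted p of 0.05 under any of the 21 alternatives, and the smallest adjusted p was 0.0516 (Slirp, TEC share as covariate). The number of members at an unadjusted p under 0.05, 0 in the main comparison, was 1 with DESeq2 (Ppargc1a), voom (Slirp), the muscle score (Polrmt), the TEC share (Slirp) and without TNTProx1 4 to 6 (Slirp), and 0 to 2 with each library left out (Polrmt and Pnpt1 without TNTProx1 1). The log2 fold change of Polrmt ranged from 0.05 to 0.59, Slirp from -0.50 to -0.04 and Ppargc1a from -0.43 to -0.13. The log2 fold change of Tfam turned to -0.053 with voom, -0.093 with the TEC share and -0.15 without TNTProx1 4 to 6, and ran from -0.028 to 0.080 with each library left out. Tfb1m turned to 0.021 with the muscle score and ran from -0.087 to 0.031, and Tfb2m turned to -0.017 with the TEC share and -0.037 without TNTProx1 4 to 6 and ran from -0.026 to 0.070. Genes at adjusted p under 0.05, 0 in the main comparison, were 560 with DESeq2, 573 with voom, 1 without the filter, 545 with the TEC share, and 0 to 589 with each library left out (589 without TNTProx1 1, 34 without TNTSham 5). Genes at unadjusted p under 0.05 were 4512 with voom, 4369 without the filter, 4324 with the muscle score, 4257 with the TEC share and 5116 without TNTProx1 4 to 6, against 2802. With each TNTSham library left out, r with the mitochondrial share ran from -0.086 to 0.24 for Tfam, from -0.44 to 0.37 for Tfb2m, from -0.53 to 0.72 for Polrmt, from -0.55 to 0.050 for Lrpprc, from -0.28 to 0.23 for Polg, from -0.22 to 0.80 for Twnk and from -0.34 to 0.63 for Pnpt1. The cause of these differences was not tested. The mitochondrial share kept its direction and its side of the threshold in every alternative run. A correlation over the 10 libraries without TNTProx1 4 to 6 is not given because the shares of the 2 groups do not overlap. No paired analysis was possible because replicate numbers follow the order of the samples and pair nothing. With 93 to 209 counts, Ppargc1a had a 95% interval from -0.77 to 0.05 over the 13 libraries. The mitochondrial difference of -0.91, taken without its own error, lay outside it, and a change down to -0.77 did not.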
